A study of Mus musculus with 12 samples.

Results

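The genes described here are 33 genes of antigen presentation and of the interferon response in mouse liver. They comprise 9 genes of the MHC class I pathway, 7 genes of the MHC class II pathway and 17 interferon-induced genes. They were chosen by the gene name of the array's non-control probes and not by their values. All 33 of 33 names were found, on 51 probes, and 12 genes had several probes. Each gene is represented by its brightest measured probe, and all 33 passed the filter on dim probes that left 14911 genes of the whole array for testing.

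Liver RNA of male mice was hybridised to 12 two-colour Agilent arrays, in 4 groups of 3 arrays. The groups were C57BL6/J (wild-type) mice and Cyp1b1 null mice, each on a diet with 10% fat (low fat) or with 60% fat (high fat). The animals went onto the diet at weaning, at 3 weeks, and were killed at 14 weeks. Sample RNA carried Cy3, and the Cy5 channel of every array held a common reference pooled from livers of the wild-type low-fat mice. A value below is the log2 ratio of the sample to that reference, so that 1 unit is a doubling, and a difference between groups is a difference of mean log2 ratios. The labels say that 3 samples were pooled, without saying whether each array had its own pool, so a p-value reflects only how far these arrays differ and may hold technical spread alone. Cyp1b1 encodes a cytochrome P450 enzyme, and the sources used here do not say which part of it is missing in the null mice.

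MHC class I molecules consist of a heavy chain and beta-2 microglobulin. They show peptides from the inside of nearly every nucleated cell. The peptides are cut by the immunoproteasome, pumped by the TAP transporter and loaded with the help of tapasin. MHC class II molecules show peptides from ingested material to helper T cells and are made mainly by professional antigen-presenting cells. In liver these include Kupffer cells, dendritic cells and B cells. Interferons switch on genes of both pathways: type I interferon acts through a complex that holds Stat2 and Irf9 on an element called the ISRE, and interferon gamma acts on the GAS element. The class II genes are switched on together by the coactivator Ciita, which binds no DNA itself and is held at an X box and a Y box before the class II genes.

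These elements are shown because they are the known docking sites of the factors that switch on these genes. The genes were grouped by name and not by these elements. RefSeq promoter windows of 300 bases on GRCm38.p6, with 250 bases before the start of the gene, were at hand for 26 of the 33 members. No window was at hand for Tap2, H2-Ab1, Cd74, Ciita, Mx1, Mx2 and Usp18. The stretches are printed 5′ to 3′ on the strand of the gene, and capitals mark the matches. In the class II genes H2-Eb1 (chr17:34305767-34305826, plus strand) and H2-Aa (chr17:34287864-34287923, minus strand) the capitals are the Y box and, in H2-Eb1, the X box core. In the others they are the ISRE, in Igtp also the GAS element and in Cxcl10 also the NF-kB site. These lie at chr2:122147537-122147566 (B2m, plus), chr19:34640779-34640818 (Ifit1, plus), chr4:156200869-156200908 (Isg15, minus), chr11:58199506-58199535 (Igtp, plus) and chr5:92349030-92349109 (Cxcl10, minus).
H2-Eb1: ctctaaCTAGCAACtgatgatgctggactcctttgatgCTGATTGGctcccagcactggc
H2-Aa: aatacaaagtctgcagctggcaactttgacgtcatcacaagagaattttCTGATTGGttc
B2m: tataagaacatGAAACTGAAAatgggaaag
Ifit1: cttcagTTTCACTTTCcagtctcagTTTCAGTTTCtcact
Isg15: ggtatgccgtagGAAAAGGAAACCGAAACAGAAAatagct
Igtp: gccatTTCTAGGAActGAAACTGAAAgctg
Cxcl10: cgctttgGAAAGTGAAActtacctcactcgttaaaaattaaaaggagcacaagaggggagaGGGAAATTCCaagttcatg

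Each motif was searched on both strands as fixed letters. The ISRE (GAAA, any 2 bases, GAAA) was found in 9 of the 26 members with a window, 8 of them interferon-induced and the other B2m, and in 3.44% of all 32851 windows. The Y box (CTGATTGG) was found in 8 of 26, among them H2-Eb1, H2-Aa, H2-D1 and H2-K1, and in 4.10% of all windows. The GAS element (TTCNNNGAA) was found in 6 of 26 and 8.30% of windows, the NF-kB site (GGGAA, any base, TTCC) in Cxcl10 and Gbp2 and 0.341% of windows, and the X box core (CTAGCAAC) in H2-Eb1 and 1.32% of windows. Matches of different motifs overlapped in 0 member windows. Tap1 and Psmb9 start 226 bases apart on opposite strands of chromosome 17, so their windows share 275 bases and the same Y box. A match describes these letters and is not a measured binding site.

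Some features of the arrays bear on what follows. Between 18374 and 23439 of 41174 probes per array had a sample signal well above background, and 32 of the 33 members were so on all 12 arrays. The exception was Mx1, on 7 arrays. Per the file headers there were 3 scan dates and 4 slides. Scan 1 held 6 arrays, scan 2 held 4, and scan 3 held 2 wild-type arrays and no null array. Arrays shared deviations by scan: the correlation over genes of their distance from the group mean had a median of 0.38 for pairs of one scan and -0.18 for pairs of different scans. Wild-type low-fat array 1 stood apart. Its spots in rows 521 to 532 had a median log2 ratio of 0.60, against -0.05 to 0.20 on the other arrays. In rows 501 to 520 its median was 0.29, against -0.05 to 0.17 on the others. Many values that move over 1.5 times without that array are also given without it, but not all. A value given once may therefore also depend on that array. Of hepatocyte markers, 9 of 9 on the array were above background on all 12 arrays, and so were 14 of 14 Kupffer cell and macrophage markers, although the source label names hepatocytes. The Cyp1b1 probe was higher on the arrays labelled null (2.22, SE 0.34, limma's adjusted p = 0.0759 at low fat, and 1.75, adjusted p = 0.21 at high fat). Whether that probe lies in the deleted part is not known here, so it checks nothing, and the null livers are those so labelled.

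Members were compared between genotypes on each diet and between diets in each genotype. Most members had a lower mean log2 ratio in null than in wild-type livers: 27 of 33 at low fat, where 50.9% of all genes did, and 27 of 33 at high fat, where 49.4% did. The lowest differences at low fat were those of the chemokines Cxcl9 (-1.31) and Cxcl10 (-1.28), of Tapbp (-1.26) and of the class II genes H2-Eb1 (-1.24) and Cd74 (-1.12). Without wild-type low-fat array 1 these were -1.32, -0.87, -0.40, -0.80 and -0.38, and 24 of 33 members were lower. No member of any set passed limma's adjusted threshold of 0.05 over all genes, which 0.0201% of all genes did at low fat (3 genes) and 0.0134% at high fat (2 genes).

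At an unadjusted p under 0.05 in limma's fit, 6 members were lower and 0 higher at low fat, against 3.81% and 3.41% of all genes. At high fat 1 was lower and 0 higher, against 1.35% and 1.22%. The null arrays all lay below the wild-type arrays for 6 members at low fat (4.55% of all genes) and 3 at high fat (4.07%), and above them for 1 (4.79%) and 0 (3.69%). Between diets, 22 of 33 members were lower on high fat in wild-type livers (48.8% of all genes), 16 of 33 without that array, and 16 of 33 in null livers (45.5%). In wild-type livers 1 member was lower and 0 were higher at an unadjusted p under 0.05 (2.23% and 1.80% of all genes), and the arrays did not overlap for 2 lower members and 0 higher ones (3.69% and 3.52%). In null livers all 4 of these counts were 0 (1.05%, 0.865%, 2.54% and 2.32% of all genes). The interaction was below 0 for 12 of 33 members (48.0%), with 0 members at an unadjusted p under 0.05 in either direction (0.436% and 0.463%). The adjusted threshold was passed by 0.00671% of all genes in each diet comparison, by 0% in the interaction, and by 0 members.

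On the low-fat diet, the 7 class II members had lower mean log2 ratios in null livers, 7 of 7, with a median difference of -0.94 against -0.01 over all 14911 genes. At an unadjusted p under 0.05 in limma's fit, 4 of 7 class II members were lower. On the probe used for each gene, the null and wild-type arrays did not overlap for 3 of 7. Among these, H2-Ab1 and H2-DMb1 overlapped on their other probes.

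H2-DMb1, a chain of the DM molecule that loads peptides onto class II, had log2 ratios of 0.17, -0.46 and 0.20 in wild-type livers and of -1.05, -0.70 and -1.16 in null livers. On a second probe the groups overlapped, but on this one all 3 null arrays lay below all 3 wild-type arrays. The difference was -0.94 (SE 0.27, limma's unadjusted p = 0.00478, adjusted p = 0.394). H2-Eb1, the beta chain of the E molecule, stood at 1.22, -0.16 and -0.04 in wild-type and at -1.38, -0.17 and -1.16 in null livers. The null arrays were again all lower, but null array 2 and wild-type array 2 differed by little, and wild-type array 1 was far above the rest. The H2-Eb1 probe lies in row 509, among the last rows where wild-type array 1 was high. The difference was -1.24 (SE 0.40, limma's adjusted p = 0.495), and -0.80 (SE 0.35, adjusted p = 0.465) without wild-type array 1.

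H2-Ab1, the beta chain of the A molecule, had log2 ratios of 0.13, -1.24 and -0.49 in wild-type low-fat livers. In null low-fat livers they were -1.58, -1.25 and -1.63, without overlap. Null array 2 and wild-type array 2 were almost equal, and on the other H2-Ab1 probes the groups overlapped. The H2-Ab1 difference of -0.95 became -0.62 without wild-type array 1. Its partner H2-Aa, the alpha chain, had -0.03, -0.83 and -0.53 in wild-type and -1.84, -0.78 and -1.26 in null livers, and the groups overlapped through null array 2. Cd74, the invariant chain that escorts class II molecules to the endosome, varied most. It stood at 2.21, -0.17 and 0.14 in wild-type and at -1.89, 1.05 and -0.34 in null livers, so that the groups overlapped. Within scans 1 and 2 its null minus wild-type differences were -1.85 and -1.72, and with scan as a block -1.58, without passing limma's adjusted threshold. The scan 1 value and the block fit include wild-type array 1, and the scan 2 value compares 1 array with 1. Without wild-type array 1 the Cd74 difference over the 2 groups came much nearer to 0, as given above. For Ciita, the coactivator, the ratios were 0.32, -0.15 and 0.14 in wild-type and -0.70, -0.12 and -0.42 in null livers, and for H2-DMa, the other DM chain, 0.15, -0.68 and -0.26 against -1.22, -0.33 and -0.65. Both overlapped between the groups.

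**Figure D1:**
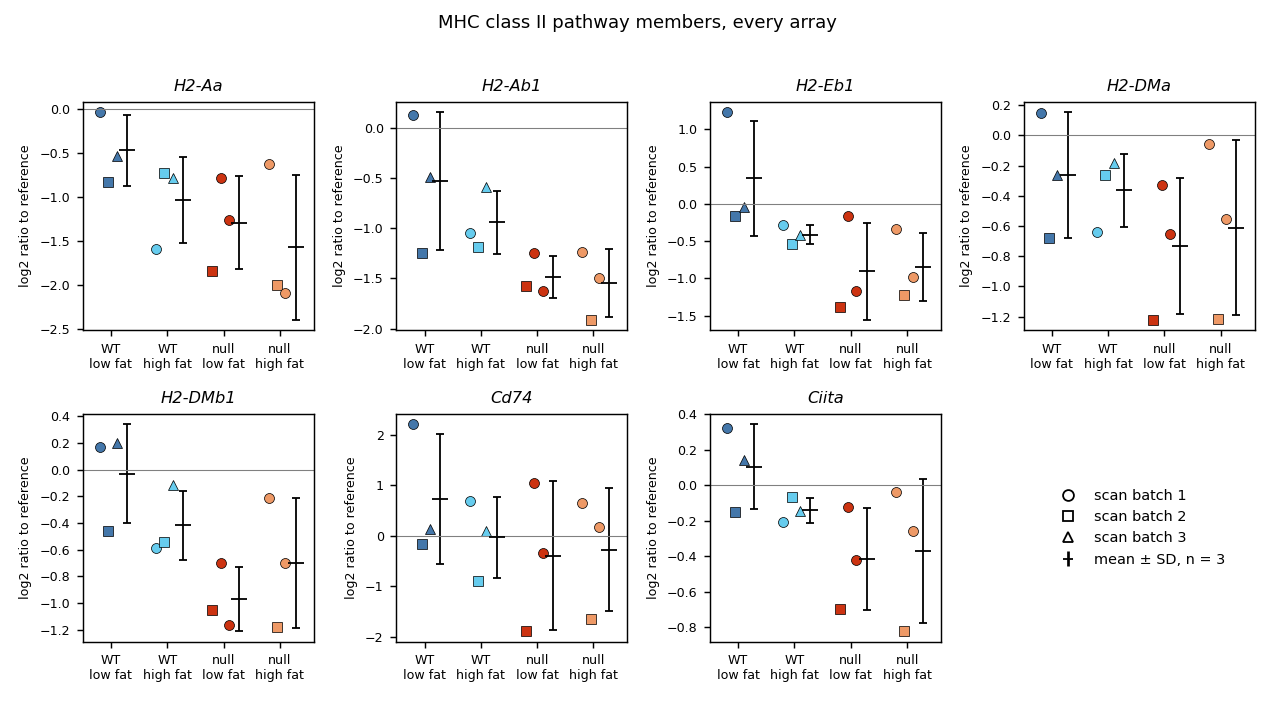
Log2 ratio to the wild-type low-fat reference (y axis) of the 7 class II members on every array, by group (x axis). Colours are groups, point shapes are scans, and bars are the mean ± SD of 3 arrays. Wild-type low-fat array 1 is the highest array for 6 of the 7 genes, and null high-fat array 2 is among the lowest 2 of 12 arrays for all 7.

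The arrays moved together across these genes. Wild-type low-fat array 1 was the highest of the 12 for 6 of 7 class II members. Null high-fat array 2 was among the 2 lowest arrays for 7 of 7, and null low-fat array 1 for 4 of 7, and both are null arrays of scan 2. Without wild-type low-fat array 1 the class II median was -0.61, still with 7 of 7 lower, of which 2 had an unadjusted p under 0.05 against 5.56% of all genes. Without null low-fat array 1 it was -0.55. Within scan 1, with 2 null arrays and that 1 wild-type array, the median was -1.10. There slide 1 held the null arrays and slide 2 the wild-type array, so slide and genotype cannot be told apart. Within scan 2, with 1 array each, it was -0.60, and 7 of 7 members were lower in either scan.

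Markers of several cell types differed beside the class II genes at low fat, and none passed limma's adjusted threshold. The pan-leukocyte list was lower in 7 of 7 genes, with a median difference of -0.40. Its median log2 ratio was 0.22, -0.66 and -0.08 on the wild-type and -0.90, -0.46 and -0.56 on the null low-fat arrays, which overlap. Without wild-type array 1 its median difference was -0.27, with 5 of 7 lower. For 12 of 14 Kupffer cell and macrophage markers the null mean was the lower one (median -0.25), but for 6 of 14 without that array (median 0.06). Of 9 stellate cell markers 7 had the lower mean in null livers (median -0.67). Their array medians were 0.50, -0.46 and -0.35 in wild-type and -1.11, -0.69 and -0.89 in null livers, without overlap. Without wild-type array 1 the stellate median difference was -0.04, with 5 of 9 lower. Of 9 hepatocyte markers 2 had the lower mean in null livers (median 0.34, and 0.70 without that array). Cell cycle genes were lower in 8 of 8 (median -0.58, and -0.22 without that array). Bile duct markers were lower in 6 of 6 (-0.22, and -0.11), and T and NK cell markers in 5 of 7 (-0.13, and -0.12). Endothelial markers were lower in 5 of 9 (-0.02, and 0.23). Without that array 6 of 8 cell cycle genes and 4 of 6 bile duct markers were lower. So were 7 of 7 T and NK cell markers and 1 of 9 endothelial markers. Of T and NK cell markers 7 of 12 were measured. Within scan 2 the null array had the lower pan-leukocyte median (-0.90 against -0.66) and the higher Kupffer median (-0.77 against -1.48). Of dendritic cell markers 4 of 9, and of B cell markers 5 of 8, were measured. Of these, 3 of 4 and 4 of 5 had the lower mean in null livers (medians -0.21 and -0.16). Cd79a, Pax5, Clec9a and Siglech, defining markers of B cells and dendritic cells, were above background on 0 arrays. In bulk tissue, fewer cells of a type and less RNA per cell cannot be told apart, and the part of cell content in the class II difference was not tested.

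On the high-fat diet the class II members were again 7 of 7 lower in null livers, with a median of -0.28 against 0.00 over all genes. Leaving out the first null array made it -0.68 and leaving out the second -0.04, and it was -0.56 with scan as a block and 0.14 with scaling between arrays. None passed limma's adjusted threshold, and 0 had an unadjusted p under 0.05. On the probes used, H2-Ab1 was the class II member whose arrays did not overlap. It had -1.05, -1.19 and -0.59 in wild-type and -1.24, -1.91 and -1.49 in null high-fat livers. The null arrays lay just below the wild-type arrays. On the other H2-Ab1 probes the groups overlapped. One of these had -0.991, -0.869 and -0.415 in wild-type and -0.645, -1.70 and -1.40 in null high-fat livers. H2-Eb1 stood at -0.28, -0.53 and -0.42 in wild-type and at -0.34, -1.22 and -0.97 in null livers, and overlapped. H2-DMb1 stood at -0.59, -0.54 and -0.12 against -0.21, -1.18 and -0.70, and the groups overlapped. The scans differed: in scan 1 the median was 0.06, with 3 of 7 lower, and in scan 2 it was -0.75, with 7 of 7 lower. Kupffer markers had a median of 0.13 and pan-leukocyte markers of -0.03 in this comparison.

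Diet was compared within each genotype, and the wild-type comparison shares its low-fat arrays with the low-fat genotype comparison. In wild-type livers 7 of 7 class II members were lower on high fat, with a median of -0.41, and H2-Eb1 differed by -0.75 (SE 0.40, limma's adjusted p = 1.00) without overlap of the arrays. Without wild-type low-fat array 1 the H2-Eb1 difference was -0.31 and the class II median -0.14, with 6 of 7 lower. Within the scans it was -1.18 in scan 1, which holds that array, 0.06 in scan 2 and -0.25 in scan 3. In null livers 2 of 7 were lower, with a median of 0.06, and scans 1 and 2 gave medians of 0.07 and -0.12. The interaction of genotype and diet had a class II median of 0.34, with 7 of 7 above 0, and 0.14 without wild-type low-fat array 1. H2-DMb1 had the smallest p of the members, 0.66 (SE 0.38, limma's adjusted p = 1.00).

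**Figure D2:**
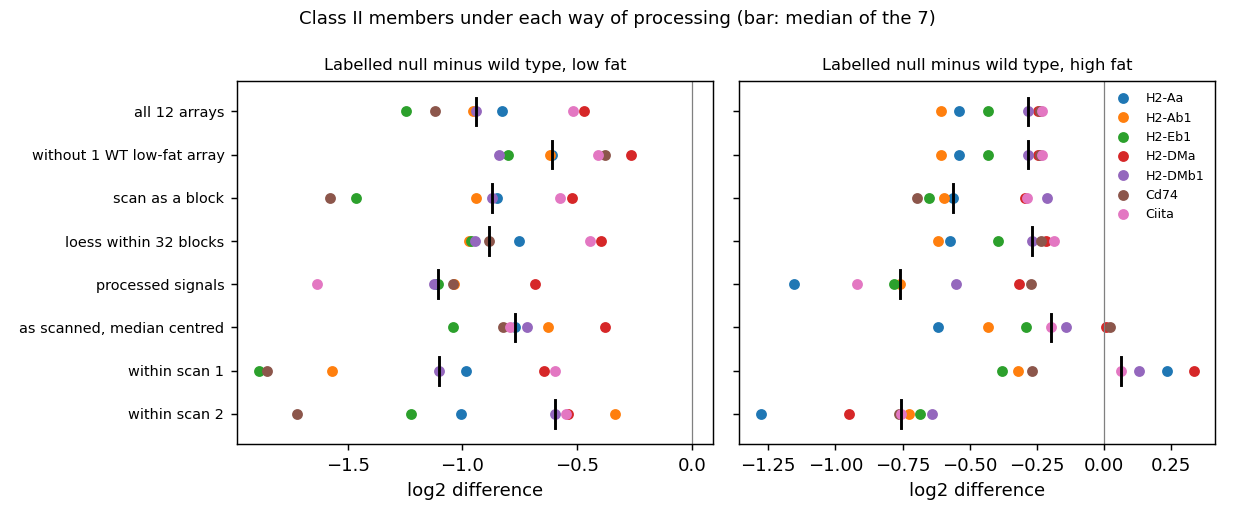
Log2 difference of null minus wild-type (x axis) for each class II member (coloured points) under 6 ways of processing and within 2 scans (y axis), at low fat (left) and high fat (right). The black bar is the median of the 7. At low fat every point lies below 0, with medians from -0.60 to -1.11. At high fat the median runs from -0.76 with processed signals to 0.06 within scan 1.

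Several class II genes had more than 1 probe, and most gave differences close to each other. At low fat the 4 probes of H2-Ab1 gave -0.97, -0.91, -0.61 and -0.95, and the 2 probes of H2-Aa gave -0.97 and -0.83. The second probe of H2-DMb1 gave -0.36, against -0.94 for the brighter one, so the size of that difference depends on the probe. So does the lack of overlap. On the second probe wild-type low-fat livers had 0.37, -0.35 and 0.15 and null low-fat livers -0.79, 0.15 and -0.28. One H2-Ab1 probe was spotted 10 times on each array, as were 1 probe each of B2m and H2-K1, which shows the error within an array. Between the 10 copies the log2 ratio of H2-Ab1 ranged over 0.31 to 1.06, with a median range of 0.70, and on 12 of 12 arrays the copy in the last row was above that in the first. The copies of B2m ranged over 0.29 to 2.26. The copies on 1 array thus spread as widely as many of the differences between groups. A range of 10 single spots is, however, not the error of a difference between group means. For H2-Ab1 and B2m the copied probe was not the one used for the gene's values. Loess within 32 blocks of the array lowered the median SD between copies from 0.227 to 0.102 for H2-Ab1 and from 0.362 to 0.115 for B2m. With it the low-fat class II median was -0.88, with 7 of 7 lower and 0 members past the threshold.

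**Figure D3:**
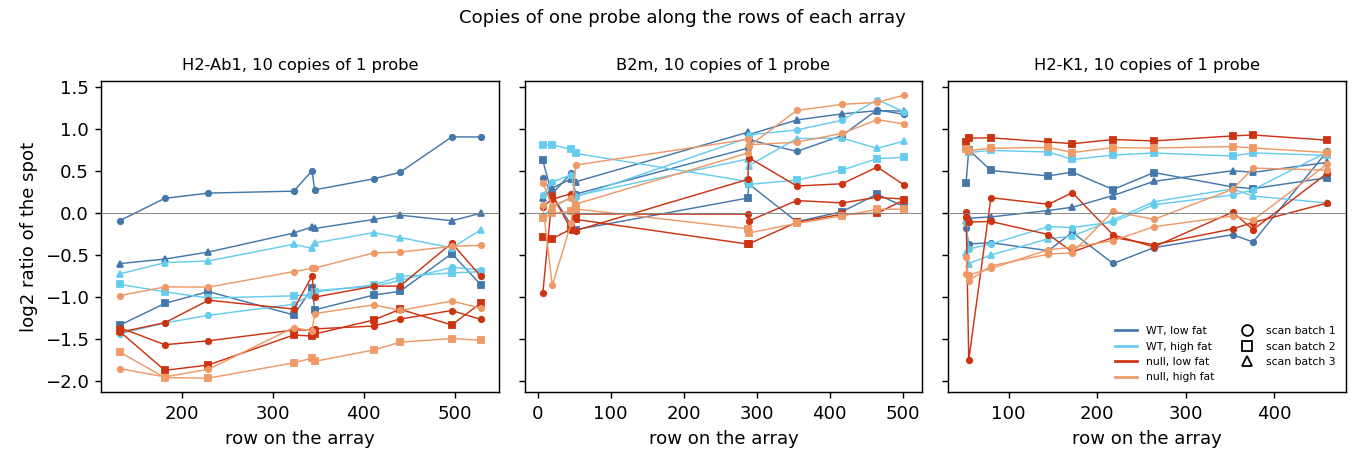
Log2 ratio (y axis) of each of 10 copies of 1 probe for H2-Ab1, B2m and H2-K1 by its row on the array (x axis). Each line is an array, coloured by group, with point shapes for scans. The last-row copy of H2-Ab1 lies above the first-row copy on 12 of 12 arrays, not always with a steady climb between, and the copies span up to 1.06.

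The class I pathway differed less. At low fat 7 of 9 members were lower in null livers, with a median of -0.20, and at high fat 7 of 9, with a median of -0.09. The wild-type diet comparison had a median of -0.10 and the null one of 0.02. Of the 9, 1 had an unadjusted p under 0.05 at low fat and 0 at high fat. The sign of the genotype medians depended on the scaling: with median centring in place of loess the low-fat median was 0.39 and the high-fat median 0.19, while the median of all genes moved to 0.33 and 0.08.

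The heavy chain gene H2-K1 had a mean log2 ratio of 0.13 ± 0.35 (SD, n = 3) in wild-type low-fat, 0.19 ± 0.46 (SD, n = 3) in wild-type high-fat, 0.18 ± 0.60 (SD, n = 3) in null low-fat and 0.10 ± 0.58 (SD, n = 3) in null high-fat livers. Its probe was saturated on 5 arrays, all of scan 1, and the reference on 3, so these ratios are only bounds there and the groups' order is not known. H2-D1, the other heavy chain, had group means from -0.35 to -0.05, and the reference signal of its probe was saturated on 3 arrays, which bounds its ratio there. B2m, the light chain, stood at 0.41, 0.36 and 0.17 in wild-type and -0.48, 0.20 and 0.19 in null low-fat livers, and the groups overlapped. Class I heavy chain genes have near-identical relatives among the H2-Q and H2-T genes, whose RNA their probes may also bind, so these values are uncertain.

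Tapasin (Tapbp), which bridges TAP and class I, had the largest class I difference at low fat, -1.26 (SE 0.53, limma's adjusted p = 0.659). Wild-type low-fat livers had log2 ratios of 3.01, 0.45 and 0.43, and null low-fat livers had 0.23, 0.12 and -0.24. The value of 3.01 stood far above every other array and came from row 531 of 532, in the rows where that array was high. Without that array the difference was -0.40 (SE 0.17, limma's adjusted p = 0.46), and the second Tapbp probe, in row 238, gave -0.09. The wild-type diet difference of Tapbp, -1.18 (SE 0.53), became -0.32 (SE 0.17) without it. Tap1, a TAP subunit also spotted in row 531, stood at 1.24, -0.11 and 0.35 in wild-type and -0.44, 0.44 and 0.18 in null low-fat livers. Its difference of -0.43 was -0.06 without that array. Tap2, the other subunit, had group means from 0.15 to 0.22, and its scan 2 arrays were all below the others. The immunoproteasome subunits Psmb8, Psmb9 and Psmb10 differed by -0.12, -0.30 and -0.20 at low fat and by -0.39, -0.17 and -0.09 at high fat, and their arrays overlapped. Psmb8 and Psmb9 differed by -0.31 and -0.54 at low fat without wild-type low-fat array 1.

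Of the interferon-induced members 13 of 17 were lower in null livers at low fat, with a median of -0.23, and 13 of 17 at high fat, with a median of -0.19. At low fat scan 1 gave a median of -0.41 and scan 2 one of 0.18, so its sign depended on the scan, and -0.25 within both scans at high fat. Median centring in place of loess gave 0.14 at low fat, where the median of all genes moved to 0.33. Without wild-type low-fat array 1 the low-fat median was -0.15, with 10 of 17 lower. The diet medians were -0.01 in wild-type livers, 0.12 without that array, and -0.02 in null livers. At an unadjusted p under 0.05, 1 of 17 was lower in each genotype comparison.

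That gene was Cxcl9, a chemokine induced by interferon gamma that attracts activated T cells. Its log2 ratios were -0.02, -0.91 and 0.95 in wild-type and -1.21, -1.40 and -1.28 in null low-fat livers. On high fat they were -0.53, -0.45 and -0.01 in wild-type and -0.76, -1.75 and -1.41 in null livers. The null arrays lay below the wild-type arrays on both diets, with wild-type spread over almost 2 units at low fat. The difference was -1.31 (SE 0.40, limma's adjusted p = 0.455) at low fat, -0.84 without wild-type array 3, and -0.97 (SE 0.40, adjusted p = 1.00) at high fat. It was -1.32 and -0.31 within scans 1 and 2 at low fat, and -0.55 and -1.30 at high fat.

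Cxcl10, a second chemokine of the same receptor, was below the reference on all 12 arrays. It stood at -0.35, -2.45 and -0.72 in wild-type low-fat, -2.84, -1.15 and -1.63 in wild-type high-fat, -2.27, -2.79 and -2.28 in null low-fat and -2.86, -2.48 and -4.13 in null high-fat livers. The groups overlapped on both diets. The high-fat difference was -1.29 (SE 0.59, limma's adjusted p = 1.00) and the null diet difference -0.71 (SE 0.59, adjusted p = 1.00). At low fat it was -2.19 within scan 1 and 0.18 within scan 2.

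Among the antiviral effectors, Ifit1, which binds foreign RNA, had 0.46, -0.30 and 0.53 in wild-type low-fat and 1.14, 0.24 and 0.81 in wild-type high-fat livers. In null livers it had 0.50, -0.24 and 0.63 on low fat and 0.01, -0.11 and 0.35 on high fat. The wild-type high-fat group was the highest, and its arrays overlapped those of each other group. The high-fat genotype difference was -0.64 (SE 0.31, limma's adjusted p = 1.00), the wild-type diet difference 0.50 (SE 0.31, adjusted p = 1.00) and the interaction -0.71 (SE 0.44, adjusted p = 1.00). Ifit3, a partner of Ifit1, did not overlap at high fat, with -0.25, -0.15 and 0.28 in wild-type and -0.57, -0.55 and -0.61 in null livers, whereas Ifit2 overlapped in every comparison. Isg15, a ubiquitin-like modifier, differed by -0.42 at low fat and -0.32 at high fat, and Usp18, which removes it, by -0.44 and -0.27, with overlap. Without wild-type low-fat array 1 the low-fat differences were -0.22 and -0.16. Oas1a, an RNA sensor, was below the reference on all 12 arrays, with group means from -1.07 to -0.65, and its null diet difference was 0.42 (SE 0.31, limma's adjusted p = 1.00). Mx1 had group means from -0.04 to 0.05. Most inbred laboratory mice are known to carry a defective Mx1 gene. Mx2 differed by 0.46 at low fat and by -0.36 (SE 0.32, adjusted p = 1.00) between diets in null livers.

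The guanylate-binding protein Gbp2 and the immunity-related GTPase Igtp, both interferon gamma targets that act on vacuoles of pathogens, had lower means in null livers on both diets. Gbp2 differed by -0.48 at low fat and -0.67 at high fat, and Igtp by -0.41 and -0.39, with overlap and without passing. The transcription factors Irf1, Irf7, Irf9 and Stat2 differed by -0.35, -0.03, 0.17 and -0.20 at low fat and by -0.14, 0.07, -0.18 and 0.02 at high fat. Irf7 stood at 0.31, -0.42 and -0.31 in wild-type and at -0.46, -0.06 and 0.01 in null low-fat livers. Its sign at low fat thus rests on wild-type array 1. Stat2 did not overlap at low fat, with -0.10, -0.18 and -0.32 in wild-type and -0.45, -0.37 and -0.38 in null livers. Ifi35 was the one member whose null low-fat arrays all lay above the wild-type arrays, at 0.75, 0.58 and 0.57 against 0.19, 0.44 and 0.38. It was also the only one of the 33 members above the reference on all 12 arrays, as 5.70% of all genes were.

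**Figure D4:**
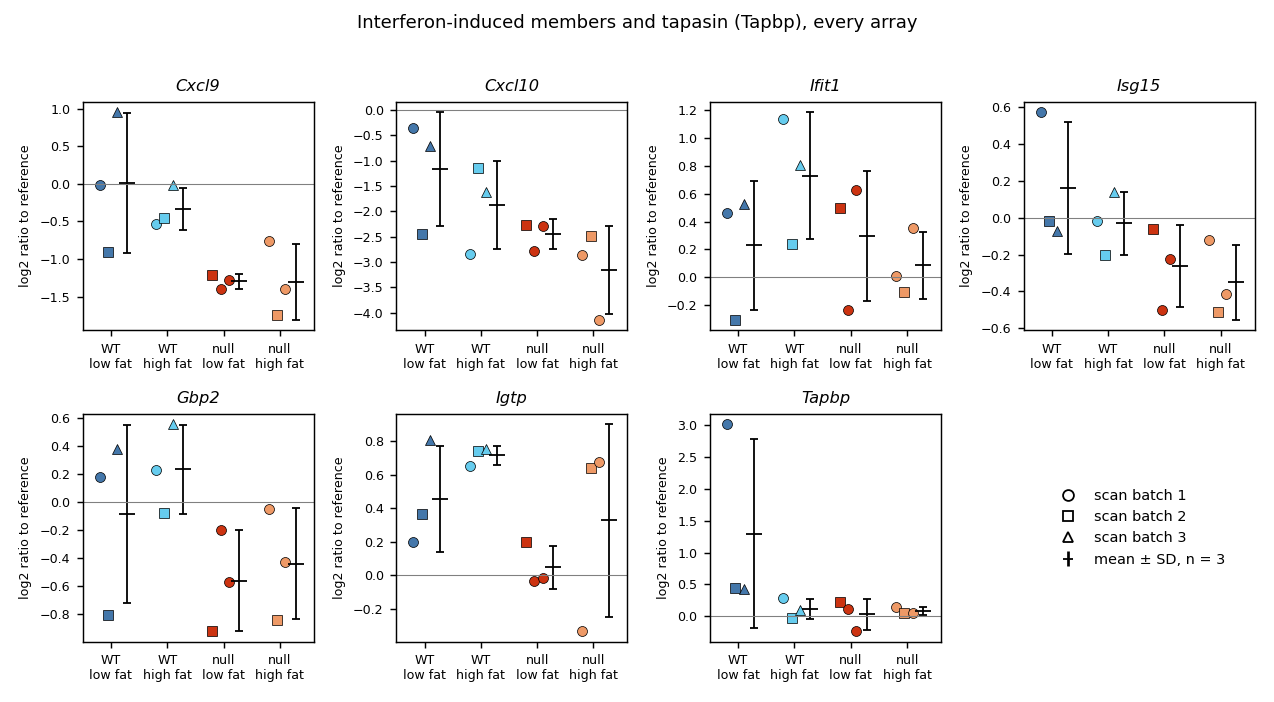
Log2 ratio to the reference (y axis) of 6 interferon-induced members and of Tapbp on every array, by group (x axis), with scans as point shapes and the mean ± SD of 3 arrays as bars. The null arrays of Cxcl9 lie below the wild-type arrays of the same diet. Tapbp has a single high point of 3.01.

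Members were also set side by side by the motifs in their windows. At low fat the median difference of those with an ISRE was -0.34 over 9 members, against -0.30 over the 17 with a window and no match, and at high fat -0.39 against -0.18. The 8 members with the Y box had medians of -0.63 at low fat and -0.35 at high fat, against -0.28 and -0.19 over 18 without. These are descriptions of few genes, and no test was made.

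Across all groups, 4 of the 33 members (H2-Aa, Stat2, Oas1a and Cxcl10) were below the reference on all 12 arrays, against 7.12% of all genes, although 3 of those arrays hold wild-type low-fat liver like the reference. Scans also separated members. The 6 arrays of scan 1 did so for 3 of 33 members (Psmb8, Irf7 and Mx1), against 7.92% of all genes. The 4 arrays of scan 2 lay wholly above or below the other 8 for 5 of 33 members, against 7.47% of all genes. Tap1, Tap2, Irf7 and Irf9 were lower, and the fifth was H2-K1, whose place is not known since its signal was saturated on 5 of the other arrays. The 2 arrays of scan 3, both wild-type, lay above all others for Psmb10, Ifit3, Cxcl9, Gbp2 and Igtp, 5 of 33, against 8.70% of all genes in either direction.

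**Figure D5:**
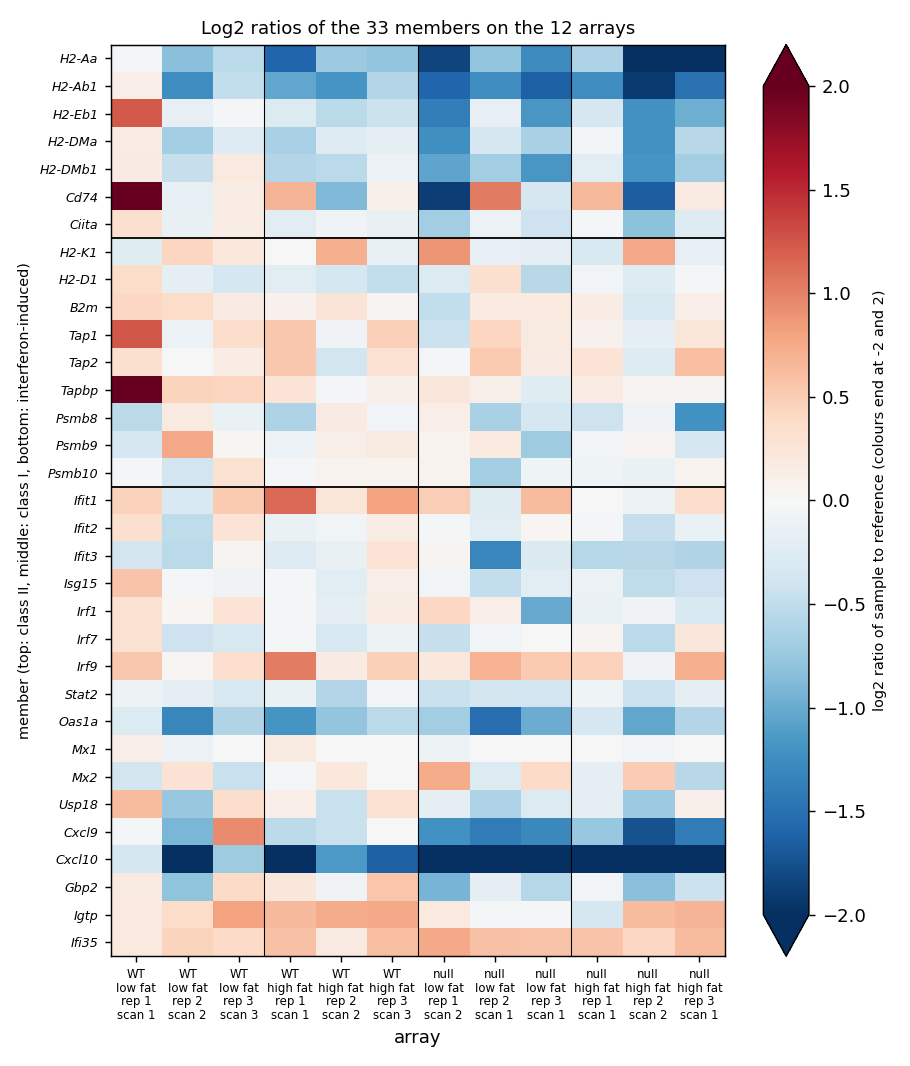
Log2 ratio to the reference (colour) of the 33 members (rows, grouped as class II, class I and interferon-induced) on the 12 arrays (columns, by group with replicate and scan). For all 7 class II members the lowest array is a null array, and for 6 the highest is wild-type low-fat array 1. Cxcl10 is below the reference throughout.

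Other genes of these pathways were taken as 4 lists. Of other class I and peptide-loading genes, 19 of 24 were measured, 10 of 19 were lower in null livers at low fat and 8 of 19 at high fat. Of class II processing genes, 8 of 12 were measured, 6 of 8 lower at low fat (median -0.28) and 3 of 8 at high fat. Their array medians at low fat were 0.24, -0.53 and -0.08 in wild-type and -0.35, -0.34 and -0.52 in null livers. Wild-type low-fat array 1 lay above the other arrays of its group for 7 of these 8 genes. Of interferon receptors and signalling genes 15 of 18 were measured, and of other interferon-induced genes 51 of 54. Of the former 11 of 15 were lower at low fat and 6 of 15 at high fat. Wild-type low-fat array 1 lay above the other arrays of its group for 10 of these 15. Of the latter 27 of 51 and 32 of 51 were lower, with medians of -0.02 and -0.06. The 4 lists were not recounted without that array, so their low-fat counts may depend on it. No gene of the lists passed limma's adjusted threshold in these comparisons.

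The gene with the smallest p of each list was named by rule. At low fat these were the interferon-induced gene Ifi27l2a (-0.91, SE 0.30, limma's adjusted p = 0.51), Irf5, a factor of toll-like receptor signalling (0.95, SE 0.41, adjusted p = 0.659), Erap1, which trims peptides (0.51, SE 0.24), and H2-Oa, a chain of the DM inhibitor DO (-0.36, SE 0.18). At high fat they were H2-Q1 (-1.68, SE 0.60), the GTPase Tgtp1 (-0.74, SE 0.27), Irf5 (1.02, SE 0.41) and the endosomal protease Lgmn (0.57, SE 0.36), each with limma's adjusted p = 1.00. In the wild-type diet comparison they were Ifi27l2a (-0.86, SE 0.30), Ctsl, a cathepsin of the invariant chain (-0.84, SE 0.37), the interferon gamma receptor chain Ifngr1 (-0.76, SE 0.34) and Mr1 (-0.41, SE 0.18), each with limma's adjusted p = 1.00. Ifngr1 differed by -0.29 and Ctsl by -0.55 without wild-type low-fat array 1. Irf5 was thus higher in null livers on both diets, and Ifi27l2a lower at low fat without overlap of its arrays. H2-Q1, a non-classical class I gene, passed under 1 of 28 settings, the processed signals (-3.36, limma's adjusted p = 0.0281).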

How the data were processed

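Spot intensities of both colours were deposited by the authors as scanner output of Agilent Feature Extraction (spot analysis version 9.1.3.1 in the headers), and the processed intensities beside them are background-subtracted and dye-normalised by that software, per the file headers. The authors' deposited table of group ratios was not used here. From the mean and background intensities, values were computed with limma 3.58.1 in R 4.3.3: normexp (offset 50), loess within arrays, no scaling between arrays, log2 of Cy3 over Cy5, and with no dye swap a dye effect shared by the arrays drops out of differences between groups. Spots marked as not uniform, 120 in all, were dropped. A probe counted as measured when well above background in Cy3 on all 3 arrays of at least 1 group, as 21490 of 41174 probes were. Which of 2 labelling kits each sample had is not given. RefSeq named 43 of the 51 member probes, each as that member, and did not list the accession of the other 8.

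The limma model had a mean for each of the 4 groups and used all 12 arrays (residual degrees of freedom 8, prior 3.17), and p-values were adjusted over 14911 genes by Benjamini-Hochberg. The steps were tested on simulated data. Differences with error are printed for the 3 members with the smallest p in each comparison, for the smallest p in each other list, and, chosen after their values were seen, for Tapbp. The members, lists and comparisons were chosen with earlier results of these data known. Replicate numbers did not pair the arrays: deviations of same-numbered arrays had a median r of -0.01. Alternatives were 2 other background corrections, other normalisations, filters, blocks for scan, slide and replicate number, and leaving out each array. After the data had been seen, loess within 32 blocks was added, and so were the scan block and the marker lists with wild-type low-fat array 1 left out.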

Additional observations from a re-analysis of the deposited data

How the results depend on the processing

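No member passed limma's adjusted threshold under any alternative or with any array left out, and Cxcl9, H2-DMb1 and H2-Eb1 were lower in null low-fat livers under all 28 settings (adjusted p 0.0845 to 1). The class II median at low fat stayed below 0 throughout, from -1.16 to -0.55 with 1 array left out. The class I and interferon-induced medians lie close to 0, and their sign under some settings follows the median of all genes. With median centring that median was 0.33 at low fat, 0.0842 at high fat, 0.13 for the wild-type diet and -0.21 for the interaction, and with as-scanned signals 0.18, 0.19 and 0.0755 in the first 3. The medians below are to be read against these. With 3 arrays a group and copies of an H2-Ab1 probe spread over 0.31 to 1.06, small differences could not be resolved. The cause of the changes below was not tested.

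Counts of genes past the threshold were 3 (low-fat genotype), 2 (high-fat genotype), 1 (wild-type diet), 1 (null diet) and 0 (interaction). In the first 3 comparisons they were 55, 51 and 5 with processed signals, 11, 21 and 2 without background correction, 11, 5 and 0 with the scan block, 13, 10 and 0 with loess within blocks, and 1, 1 and 0 without the filter on dim probes. With the sample channel alone they were 34, 38, 2 and, for the null diet, 3. They were 0 in these 4 with as-scanned signals, with median centring and with scaling between arrays, and 0 in the first 3 with a robust variance trend. The filter on all 12 arrays gave 5 and 1 for the genotype comparisons, the compared groups alone 0 at low fat and 0 for the wild-type diet, and the slide block 1 at low fat and 0 in each diet comparison. The scan block without wild-type low-fat array 1 gave 22, 40, 2 and 8. Leaving out 1 array gave 1 to 28 genes at low fat, 0 to 8 at high fat, 0 to 1 in each diet comparison and 0 in the interaction. The replicate block gave 1, 1 and 0, with 0 members past the threshold. Replicate numbers did not pair the arrays, and 5 of 12 arrays were closest to an array of their own number.

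Set medians moved beyond 1 SD between arrays as follows. At high fat processed signals gave -0.76 for class II and -0.49 for interferon-induced members. As-scanned signals gave class I medians of 0.15 at low fat, 0.13 at high fat and 0.0439 for the wild-type diet. Median centring gave 0.39 (class I), -0.49 (class II) and 0.14 (interferon-induced) at low fat, 0.19 (class I) at high fat, 0.0677 (class I) for the wild-type diet, and -0.19 (class I) and -0.22 (interferon-induced) for the interaction. Scaling gave class I -0.30 at high fat, 0.13 for the wild-type diet and -0.11 for the interaction, and class II -1.49 for the wild-type diet. The slide block gave interferon-induced medians of 0.23 at low fat, -0.41 for the null diet and -0.32 for the interaction, and class I -0.20 for the null diet. The scan block without wild-type low-fat array 1 gave -0.0838 (class I) and -0.0059 (interferon-induced) at low fat. Leaving out 1 array gave class I medians of -0.36 to -0.0899 at low fat and 0.065 to 0.30 for the interaction. In null livers the diet difference of Oas1a turned to -0.24 with scaling and -0.24 with the slide block, and that of Cxcl10 to 0.22 with the sample channel alone.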
